A study of Arabidopsis thaliana with 42 samples.

Results

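MYC2 (AT1G32640) and 7 genes used as outputs of the wound-type branch of jasmonate signalling were followed in leaves of Arabidopsis thaliana Col-0 inoculated with Pma (Pseudomonas syringae pv. maculicola ES4326) or given a mock treatment. The 7 output genes were VSP1 (AT5G24780), VSP2 (AT5G24770), TAT3 (AT2G24850), CORI3 (AT4G23600), CLH1 (AT1G19670), TPS04 (AT1G61120) and the terpene synthase gene AT2G24210, named TPS10 in the reference annotation. These 8 genes were picked by locus, not by a threshold on their values, from a table of 24843 loci, and all 8 passed the filter on low counts. Leaf RNA was counted as 3′ tags in 42 libraries that formed 14 groups, 7 genotypes under each of 2 treatments, with 3 libraries per group. Each library held 2 mature leaves, and the 3 libraries of a group came from 3 independent experiments, so n = 3 stands for 3 experiments throughout. The study asked how mutants of calmodulin-like and calmodulin-binding defence genes change the leaf transcriptome after infection.

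The genotypes were sid2, wrky70, cml46 cml47, cbp60a, chp60g sard1 (the label's spelling, taken to mean cbp60g sard1), the triple mutant cbp60a cbp60g sard1, and wild type. All plants were 30 days old and were in the Col-0 background. Pma leaves received a suspension of OD600 0.0002, mock leaves received 5 mM MgSO4, and all were taken 24 h later. Neither the mutant alleles nor the number of lines per genotype is given in the sources used here. CBP60g and SARD1 are transcription factors that raise expression of the salicylic acid synthesis gene ICS1, which is the gene mutated in sid2. WRKY70 is a transcription factor of salicylic acid defence, CBP60a is a relative of CBP60g, and CML46 and CML47 are calmodulin-like proteins.

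MYC2 is a basic helix-loop-helix transcription factor that JAZ repressors hold inactive. When jasmonoyl-isoleucine binds the receptor COI1, the JAZ proteins are degraded and MYC2 and its relatives switch on wound and anti-herbivore genes, many of them through the DNA element CACGTG or variants such as CACATG. Strains of P. syringae that make coronatine, a mimic of jasmonoyl-isoleucine, act on the same receptor, and salicylic acid signalling is known to hold back jasmonate outputs in leaves.

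The sequences upstream of the outputs were read because MYC2 is known to bind such elements. In the 250 bases before the gene start (genome TAIR10.1 of RefSeq), none of the 8 genes held CACGTG on either strand, and 4 held CACATG, read on the other strand as CATGTG. Of 27443 Arabidopsis promoters of this length, 6.49% held CACGTG and 11.1% held CACATG. The motif letters do not overlap each other, and a match describes letters and is not a binding site. The 4 windows that held the element are shown 5′ to 3′ on the strand of the gene, with the element in capitals. TAT3 (chr2:10585217-10585466, minus strand) held it 111 to 106 bases before the start, CLH1 (chr1:6805093-6805342, minus strand) 55 to 50 bases before it, and AT2G24210 (chr2:10294036-10294285, plus strand) 102 to 97 bases before it. TPS04 (chr1:22523385-22523634, plus strand) held it 2 times, at 177 to 172 and 82 to 77 bases before the start.
TAT3: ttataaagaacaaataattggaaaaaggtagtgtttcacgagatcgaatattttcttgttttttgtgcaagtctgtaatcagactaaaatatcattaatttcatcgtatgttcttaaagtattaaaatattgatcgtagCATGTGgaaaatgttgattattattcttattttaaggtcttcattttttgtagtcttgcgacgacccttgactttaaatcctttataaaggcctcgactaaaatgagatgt
CLH1: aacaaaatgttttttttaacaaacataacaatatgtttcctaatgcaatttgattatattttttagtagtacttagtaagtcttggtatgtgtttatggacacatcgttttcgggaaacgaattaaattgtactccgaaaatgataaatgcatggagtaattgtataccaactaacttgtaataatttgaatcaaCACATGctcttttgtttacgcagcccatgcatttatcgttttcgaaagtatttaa
AT2G24210: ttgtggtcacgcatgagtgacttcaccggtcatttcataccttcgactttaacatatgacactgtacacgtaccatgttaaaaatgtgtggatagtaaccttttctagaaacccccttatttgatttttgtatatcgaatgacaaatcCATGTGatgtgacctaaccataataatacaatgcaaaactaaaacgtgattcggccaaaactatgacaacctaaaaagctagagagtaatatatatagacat
TPS04: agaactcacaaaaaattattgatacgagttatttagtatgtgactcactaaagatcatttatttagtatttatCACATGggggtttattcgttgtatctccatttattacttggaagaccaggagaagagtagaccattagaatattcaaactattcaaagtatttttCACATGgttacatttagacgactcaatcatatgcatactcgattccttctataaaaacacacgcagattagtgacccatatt

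No match was found in the windows of MYC2, VSP1, VSP2 and CORI3, which says only that these letters are not in those 250 bases. VSP1 (chr5:8507590-8509201) and VSP2 (chr5:8500468-8502224) lie 5365 bp apart on the minus strand, and the last 200 bases of their transcripts are 91.4% identical over the aligned bases, with a longest shared run of 45 bases. Tags of this pair could therefore be split between them by the counting, and their separate levels carry that caution. MYC2 (chr1:11798119-11801407, minus strand) overlaps AT1G32630 on the plus strand over 3241 bp. That neighbour had 9 to 55 counts per library, and the strand setting of the counting was not given in the sources used here. TAT3 lies at chr2:10582074-10585216, CORI3 at chr4:12310379-12313212, CLH1 at chr1:6803486-6805092, TPS04 at chr1:22523635-22528836 and AT2G24210 at chr2:10294286-10297597.

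Libraries held 919335 to 2691069 counts (median 1588053.5), and levels are given as CPM, the counts of a gene scaled to the same library size after TMM. The 8 genes made up 0.264% to 4.55% of the counts of a Pma library and 0.0117% to 0.165% of a mock library. None of the mutated genes was higher in its own mutant than in wild type after Pma. CML46 averaged 0.473 CPM in cml46 cml47 and 335 CPM in wild type, and ICS1 averaged 1.94 CPM in sid2 and 542 CPM in wild type, while CML47 (229 and 682 CPM, adjusted p = 0.173) and CBP60A in cbp60a (20.1 and 46.2 CPM, adjusted p = 0.192) did not pass the test, and a 3′ tag may lie outside the mutated part. The cbp60a mock library of experiment 1 stood apart, with 705 CPM of the salicylic acid marker PR1, against 11.7 and 14.1 CPM in the other two. All p-values are from edgeR's quasi-likelihood test on the whole table with the experiment as a block, Benjamini-Hochberg adjusted over 15161 genes, and a gene is said to rise or fall at adjusted p under 0.05.

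In wild type leaves all 8 genes were higher after Pma than after mock, and for all 8 the lowest Pma library lay above the highest mock library. The share of all tested genes that passed in this comparison was 66.3%, and 32.3% passed as higher. How many of all tested genes had Pma and mock libraries apart in this way was not counted. The median log2 fold change was 5.56 for the 8 genes and -0.02 for all tested genes. The bulk leaf values cannot separate a change in the number of cells that express a gene from a change in RNA per cell.

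MYC2 had 75.8, 223 and 166 CPM in wild type Pma leaves of experiments 1 to 3, against 19.6, 18.3 and 19.7 CPM in wild type mock leaves. The mock libraries were nearly level, and the Pma library of experiment 1 was the lowest of the infected ones. The log2 fold change was 2.89 ± 0.46 (SE), a 7.43-fold rise (adjusted p = 2.00e-06).

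TPS04, the geranyllinalool synthase of the homoterpene TMTT, had 870, 886 and 1980 CPM in wild type Pma leaves, against 1.31, 2.19 and 2.82 CPM in mock leaves. It was close to absent in mock leaves and rose 557-fold (log2 9.12 ± 0.86, adjusted p = 9.69e-11). AT2G24210, a monoterpene synthase gene, had 24.7, 50.7 and 116 CPM in Pma leaves, against 1.31, 0 and 1.88 CPM in mock leaves, and rose 56.4-fold (log2 5.82 ± 0.78, adjusted p = 3.01e-08). Its mock value rests on 4 counts over 3 libraries, so the size of that fold is loosely fixed.

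TAT3, annotated as a tyrosine aminotransferase and known as a wound and jasmonate marker, had 6389, 10386 and 13071 CPM in wild type Pma leaves, against 29.4, 31.4 and 6.58 CPM in mock leaves. The groups lay far apart, and the rise was 428-fold (log2 8.74 ± 1.10, adjusted p = 2.80e-08). CORI3, a coronatine-induced cystine lyase, had 765, 2617 and 1422 CPM in Pma leaves, against 131, 71.7 and 79.9 CPM in mock leaves (17.7-fold, log2 4.15 ± 0.65, adjusted p = 1.32e-06). CLH1, a chlorophyllase, had 170, 767 and 929 CPM in Pma leaves, against 45.03, 49.7 and 61.1 CPM in mock leaves (10.1-fold, log2 3.34 ± 0.58, adjusted p = 7.87e-06).

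The vegetative storage proteins VSP1 and VSP2 are acid phosphatases with a role against insects. VSP1 had 40.3, 677 and 213 CPM in wild type Pma leaves, against 3.92, 4.39 and 1.88 CPM in mock leaves (90.9-fold, log2 6.51 ± 1.2, adjusted p = 1.65e-05). VSP2 had 126, 1789 and 547 CPM in Pma leaves, against 39.2, 12.4 and 5.64 CPM in mock leaves (39.7-fold, log2 5.31 ± 1.24, adjusted p = 0.000358). Both genes were lowest in experiment 1 and highest in experiment 2 among the infected leaves, and their SE was the widest of the 8.

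**Figure D1:**
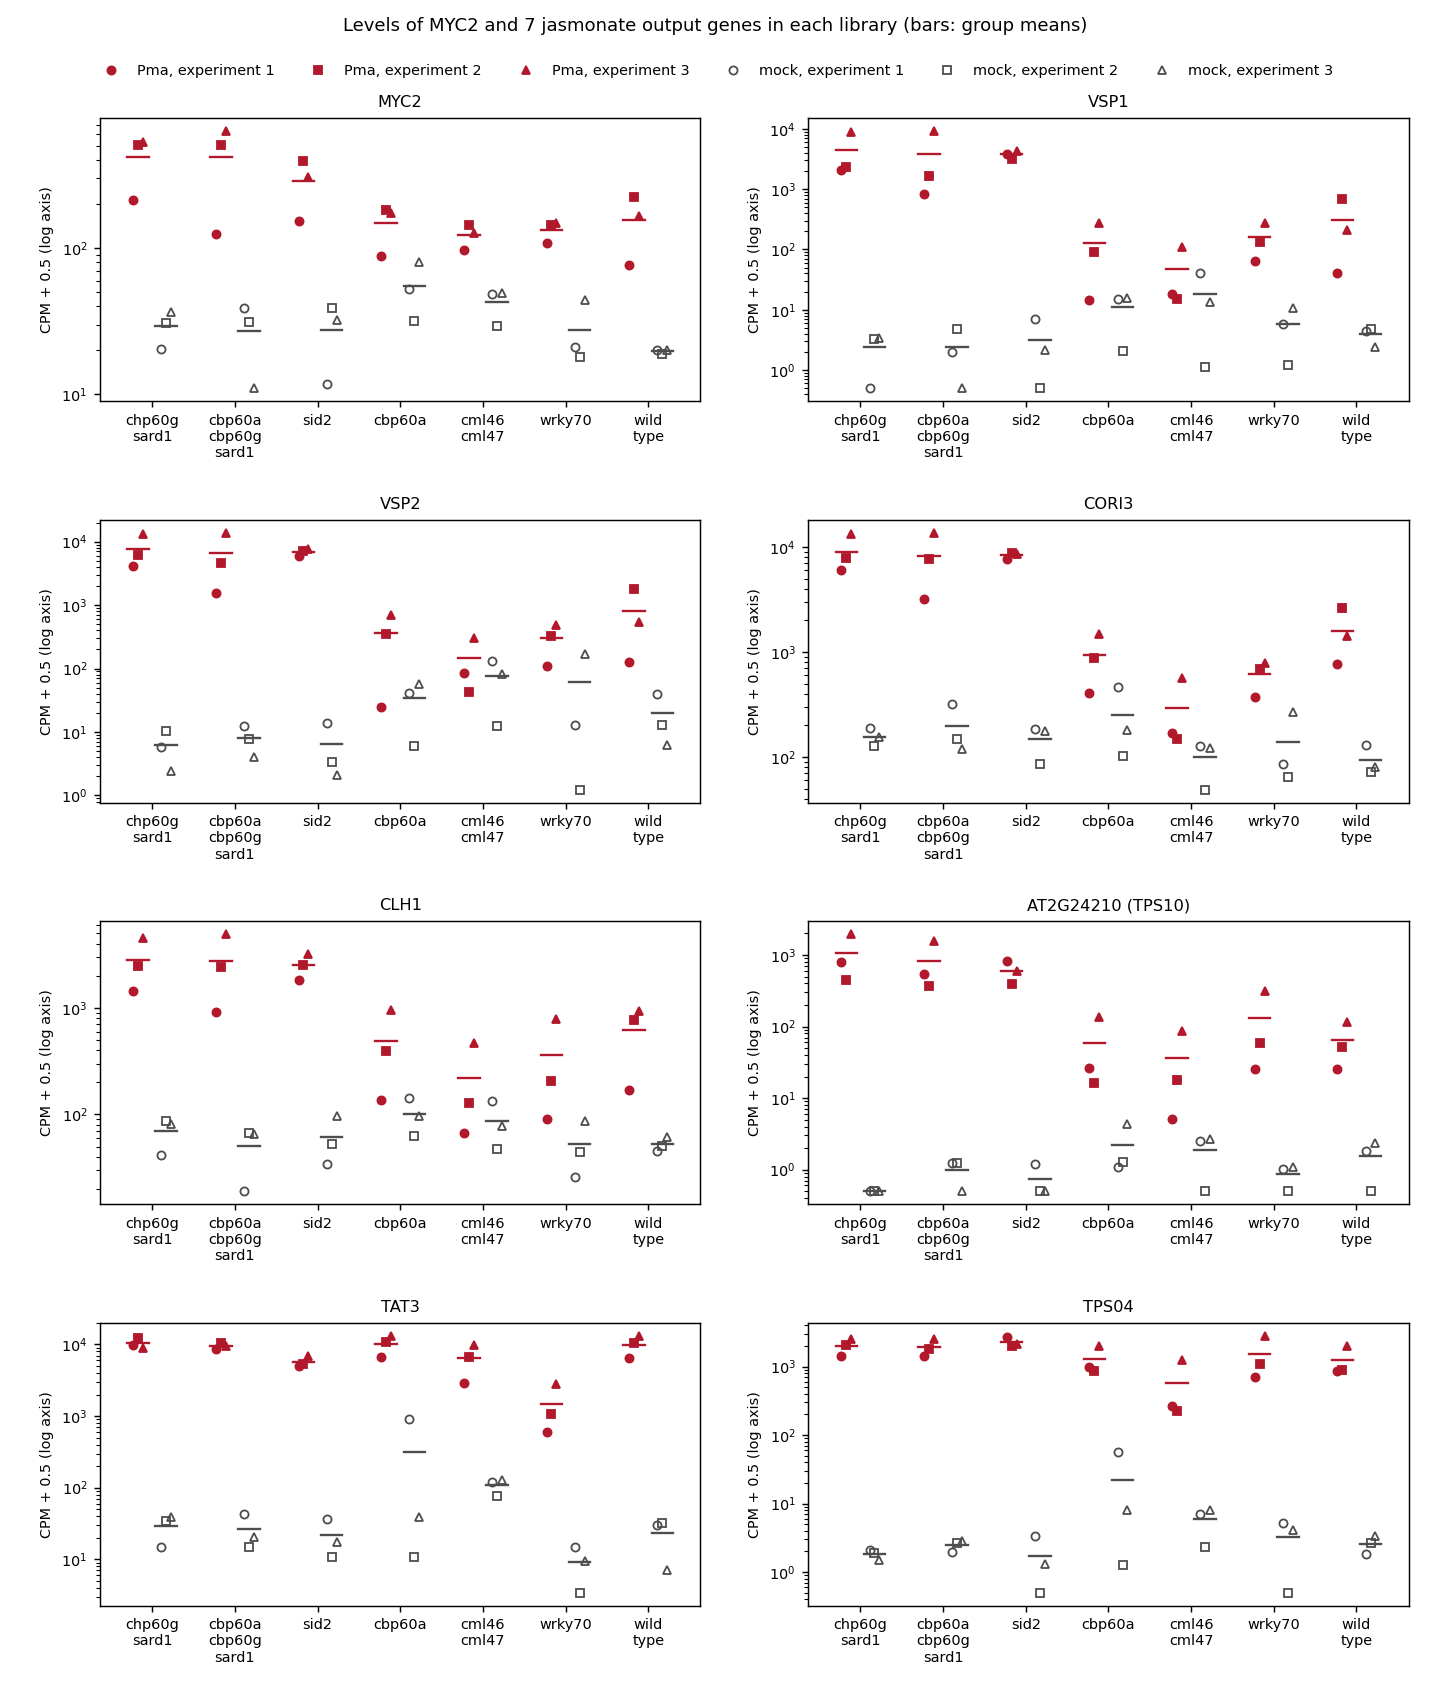
Levels of the 8 genes in CPM (plus 0.5, log axis) in each of the 42 libraries, with Pma (filled red) left of mock (open grey) for each genotype, marker shapes for the 3 experiments and bars at group means. In wild type the lowest Pma library lay above the highest mock library for each of the 8 genes (share of all genes not counted), and VSP1, CORI3 and AT2G24210 lay higher in every Pma library of chp60g sard1, the triple mutant and sid2 than in any Pma library of the other genotypes.

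Across the 7 genotypes the Pma response was positive in all 56 pairs of gene and genotype, and 53 of them passed the test. All 8 genes rose in cbp60a (63.2% of all genes passed, 29.7% as higher), chp60g sard1 (57.4%, 27.8% as higher), the triple mutant (58.3%, 27.8% as higher), wrky70 (60.7%, 29.3% as higher) and sid2 (62.6%, 31.1% as higher), and 5 of 8 rose in cml46 cml47 (57.1%, 26.9% as higher). The median log2 fold change of the 8 genes was 9.30 in chp60g sard1, 9.09 in sid2, 8.95 in the triple mutant, 3.74 in wrky70, 3.19 in cbp60a, 1.47 in cml46 cml47 and 5.56 in wild type, while the median over all tested genes lay between -0.04 and 0.00 in each. The cbp60a median includes the mock library of experiment 1, which stood apart. In chp60g sard1, the triple mutant and sid2, as in wild type, Pma and mock libraries did not overlap for any of the 8 genes. The share of all tested genes without such overlap was not counted.

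VSP1 had a log2 fold change of 11.04 in chp60g sard1, 10.44 in sid2, 10.20 in the triple mutant and 6.51 in wild type. VSP2 had 10.08 in chp60g sard1, 10.06 in sid2, 9.30 in the triple mutant and 5.31 in wild type. TPS04 and TAT3 were closer to wild type, with TPS04 at 10.44, 9.85 and 10.83 in chp60g sard1, the triple mutant and sid2 and TAT3 at 8.52, 8.60 and 8.12. MYC2 changed least among the 8 in each of them, with log2 fold changes of 3.81 in chp60g sard1, 3.69 in the triple mutant and 3.41 in sid2. AT2G24210 had 5399 counts over the Pma libraries of chp60g sard1 and none over its mock libraries, so it was at least 1693-fold higher (3 counts over the group taken as the floor). For the same gene the ratio of Pma to mock was 1463 in the triple mutant (95% counting interval 405 to 12087; 2 mock counts), 2444 in sid2 (438 to 96564; 1 mock count) and 328 in wrky70 (90.4 to 2712; 2 mock counts). These intervals cover counting error only.

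The cml46 cml47 leaves had 3 genes whose Pma response did not pass. VSP1 had 17.8, 14.4 and 108 CPM in cml46 cml47 Pma leaves, against 39.8, 0.619 and 12.7 CPM in cml46 cml47 mock leaves (log2 0.77, adjusted p = 0.506). The highest mock library, that of experiment 1, exceeded 2 of the 3 Pma libraries. VSP2 had 84.1, 41.8 and 305 CPM in Pma leaves, against 129, 11.8 and 82.5 CPM in mock leaves (log2 0.60, adjusted p = 0.637), and CLH1 had 66.3, 127 and 465 CPM, against 132, 47.02 and 77.7 CPM (log2 0.75, adjusted p = 0.245). Without the mock library of experiment 1, VSP1 (log2 3.05, adjusted p = 0.0174) and CLH1 (log2 2.02, adjusted p = 0.00357) passed. Without experiment 3 the sign of both turned, to -0.49 for VSP1 and -0.22 for CLH1. TPS04 (log2 6.55), TAT3 (5.96), AT2G24210 (4.26), MYC2 (1.47, adjusted p = 0.00384) and CORI3 (1.47, adjusted p = 0.0309) rose. The MYC2 call was lost without experiment 2 (log2 1.16, adjusted p = 0.088). That of CORI3 was lost without experiment 2 (log2 1.42, adjusted p = 0.133) and without experiment 3 (0.83, 0.362). It was also lost without mock library 2 or 3 or Pma library 3 (log2 0.86 to 1.47, adjusted p 0.077 to 0.256).

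In cbp60a the responses of CLH1 (log2 1.74, adjusted p = 0.00682), CORI3 (1.82, 0.00812), VSP1 (3.15, 0.0079) and VSP2 (3.23, 0.0132) were seen in 2 of 3 experiments, since in experiment 1 the mock leaf was at or above the Pma leaf. VSP1, for example, had 13.9, 89.6 and 277 CPM in cbp60a Pma leaves, against 14.7, 1.57 and 15.3 CPM in cbp60a mock leaves. Calls in these 4 genes were lost without experiment 2 or without experiment 3, at adjusted p between 0.0595 and 0.165. VSP2 was also lost without mock library 2 (0.0563) and VSP1 and VSP2 without Pma library 3 (0.0525 and 0.0536). MYC2 rose 2.57-fold (log2 1.36, adjusted p = 0.00637, or 0.154 without experiment 2). On the log2 scale TPS04 rose by 5.71, TAT3 by 5.13 and AT2G24210 by 4.90. The cbp60a mock library of experiment 1, which stood apart, had 56.5 CPM of TPS04 and 908 CPM of TAT3. The mock libraries of experiments 2 and 3 had 0.783 and 7.67 CPM of TPS04 and 10.2 and 38.3 CPM of TAT3. Over the 15 alternatives log2 ranged from 5.14 to 8.71 for TPS04 and from 4.33 to 9.09 for TAT3. All 8 genes passed without mock library 1.

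In wrky70 MYC2 rose by 2.30, CLH1 by 2.56, CORI3 by 2.29, VSP1 by 4.77, TAT3 by 7.40 and TPS04 by 8.95 on the log2 scale. The CORI3 call was lost without experiment 2 (log2 1.78, adjusted p = 0.0595). VSP2 was the least settled (log2 2.71, adjusted p = 0.0294), with 110, 324 and 481 CPM in wrky70 Pma leaves, against 12.6, 0.730 and 169 CPM in wrky70 mock leaves. The mock library of experiment 3 lay above the Pma library of experiment 1. The VSP2 call was lost without mock library 1 or 2 or Pma library 2 or 3 (adjusted p 0.061 to 0.116), without experiment 2 (log2 1.87, adjusted p = 0.216) and without the experiment block (log2 2.32, adjusted p = 0.0856).

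**Figure D2:**
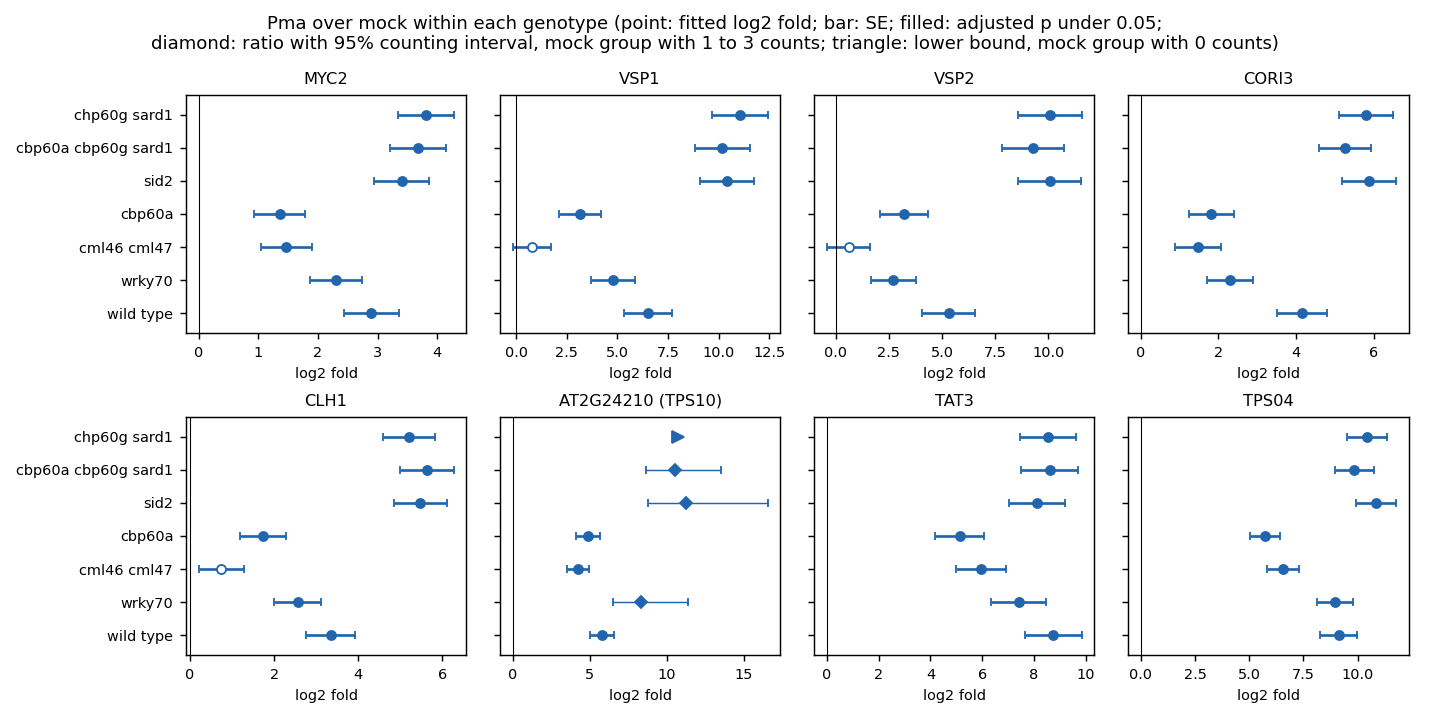
Log2 fold change of Pma over mock ± SE for each of the 8 genes in each genotype. Filled points passed adjusted p under 0.05; for AT2G24210 diamonds are count ratios with their 95% counting interval and the right-pointing triangle is the lower bound in chp60g sard1, where mock had no counts. CLH1, VSP1 and VSP2 in cml46 cml47 did not pass.

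After Pma, 5 of the 8 genes were higher in chp60g sard1 than in wild type (13.1% of all genes passed, 8.88% as higher), 5 in the triple mutant (10.1%, 7.01% as higher) and 4 in sid2 (14.5%, 8.89% as higher). The genes were AT2G24210, VSP1, CORI3 and CLH1 in all 3 mutants, and MYC2 in chp60g sard1 and the triple mutant. TPS04, TAT3 and VSP2 did not pass in any of them, and none of the 8 was lower. The median log2 fold change of the 8 genes was 2.30 in chp60g sard1, 2.14 in the triple mutant and 2.27 in sid2, against 0.06, 0.06 and 0.10 over all tested genes. With library totals alone as the scale the median of all genes moved by -0.25, -0.23 and -0.24, and the calls over all genes were 950 higher of 2406 in chp60g sard1 (1347 of 1986 with TMM factors), 701 of 1684 in the triple mutant (1063 of 1533) and 817 of 2372 in sid2 (1348 of 2200). With that scale TAT3 in chp60g sard1 turned to -0.16 (0.08 with TMM factors), and no other of the 8 genes changed its sign in these 3 comparisons.

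MYC2 had 215, 505 and 534 CPM in chp60g sard1 Pma leaves, 125, 505 and 632 CPM in the triple mutant, 153, 396 and 308 CPM in sid2, and 75.8, 223 and 166 CPM in wild type. Each mutant library exceeded the wild type library of the same experiment, but the ranges of the groups overlapped. MYC2 was 2.69-fold higher in chp60g sard1 (log2 1.43 ± 0.41, adjusted p = 0.0183) and 2.60-fold higher in the triple mutant (log2 1.38 ± 0.41, adjusted p = 0.0283), while in sid2 the 1.86-fold difference did not pass (log2 0.89 ± 0.41, adjusted p = 0.144). The sid2 value was 0.0369 in a fit of the Pma libraries alone and reached 0.435 over all 16 alternatives. Set directly against sid2, the MYC2 difference of chp60g sard1 did not pass (log2 0.54, adjusted p = 0.528). The MYC2 calls were fragile. In chp60g sard1 the call was lost without wild type Pma library 1 (log2 1.22, adjusted p = 0.11) or 3 (1.38, 0.0801) and without chp60g sard1 Pma library 2 (1.32, 0.0604) or 3 (1.33, 0.085). In the triple mutant the same libraries of wild type (1.17, 0.142 and 1.33, 0.113) and of the mutant (1.23, 0.0944 and 1.06, 0.234) decided it. Both calls were also lost with library totals alone as the scale (adjusted p = 0.0503 in chp60g sard1 and 0.0785 in the triple mutant), without the experiment block (0.0775 and 0.0881), without experiment 2 (0.0918 and 0.128) and without experiment 3 (0.24 and 0.472).

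AT2G24210 had 800, 452 and 1958 CPM in chp60g sard1 Pma leaves, 536, 364 and 1578 CPM in the triple mutant, 815, 394 and 606 CPM in sid2, and 24.7, 50.7 and 116 CPM in wild type. All 9 mutant libraries lay above all 3 wild type libraries. The gene was 16.4-fold higher in chp60g sard1 (log2 4.04 ± 0.53, adjusted p = 1.44e-06), 12.3-fold in the triple mutant (log2 3.62 ± 0.52, adjusted p = 9.77e-06) and 12.5-fold in sid2 (log2 3.65 ± 0.53, adjusted p = 1.61e-05). These 3 calls held under all 16 alternatives tried for each.

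VSP1 had 2108, 2328 and 8994 CPM in chp60g sard1 Pma leaves, 832, 1677 and 9188 CPM in the triple mutant, 3786, 3215 and 4386 CPM in sid2, and 40.3, 677 and 213 CPM in wild type. No mutant library overlapped the wild type range, and experiment 3 was the highest in each mutant. VSP1 was 10.7-fold higher in chp60g sard1 (log2 3.42 ± 0.94, adjusted p = 0.0121), 8.23-fold in the triple mutant (log2 3.04 ± 0.93, adjusted p = 0.0305) and 11.7-fold in sid2 (log2 3.55 ± 0.94, adjusted p = 0.00964). The ratio to the wild type leaf of the same experiment ranged widely, from 3.44 to 52.3 in chp60g sard1, from 2.48 to 43.1 in the triple mutant and from 4.75 to 93.9 in sid2, and was smallest in experiment 2 in each. The call was lost without wild type Pma library 1 or 3 in chp60g sard1 (adjusted p = 0.0838 and 0.092), the triple mutant (0.151 and 0.177) and sid2 (0.0692 and 0.0684), and without Pma library 3 of chp60g sard1 (0.0525) or the triple mutant (0.204). Without experiment 3 it was lost in all 3 mutants (0.241 in chp60g sard1, 0.55 in the triple mutant and 0.0929 in sid2), and by DESeq2 in the triple mutant (log2 3.05, adjusted p = 0.0675).

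VSP2 followed the pattern of VSP1 without passing the test in the fit of all libraries. It had 4061, 6195 and 12985 CPM in chp60g sard1 Pma leaves, 1544, 4587 and 13876 CPM in the triple mutant, 5982, 7242 and 7733 CPM in sid2, and 126, 1789 and 547 CPM in wild type. The high wild type library of experiment 2 overlapped the triple mutant alone. The differences were log2 2.95 ± 1.06 in chp60g sard1 (adjusted p = 0.0629), 2.59 in the triple mutant (0.121) and 2.99 in sid2 (0.0547). Without wild type Pma library 2 all 3 passed, at log2 4.93 (0.0118), 4.56 (0.022) and 5.00 (0.0117). In a fit of the Pma libraries alone all 3 passed as well (0.00921 in chp60g sard1, 0.0273 in the triple mutant and 0.0069 in sid2), and with no filter on low counts VSP2 passed in chp60g sard1 (0.0289) and sid2 (0.0236), while by DESeq2 it passed in none of the 3. Over the 15 alternatives of each, the adjusted p reached 0.366 in chp60g sard1, 0.651 in the triple mutant and 0.211 in sid2. VSP1 made up 17.5% to 40.9% (median 29.3%) of the summed VSP1 and VSP2 counts of the 21 Pma libraries, and the sum of both was 3.07 higher on the log2 scale in chp60g sard1 (adjusted p = 0.055), 2.71 higher in the triple mutant (0.106) and 3.11 higher in sid2 (0.0472).

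CORI3 had 6045, 7925 and 13220 CPM in chp60g sard1 Pma leaves, 3178, 7683 and 13756 CPM in the triple mutant, 7780, 8768 and 8555 CPM in sid2, and 765, 2617 and 1422 CPM in wild type. The groups did not overlap. CORI3 was 5.16-fold higher in chp60g sard1 (log2 2.37 ± 0.59, adjusted p = 0.00638), 4.59-fold in the triple mutant (log2 2.20 ± 0.59, adjusted p = 0.0134) and 5.01-fold in sid2 (log2 2.32 ± 0.59, adjusted p = 0.00715). CORI3 missed the threshold without wild type Pma library 1 or 3 (adjusted p 0.0548 to 0.0955 over the 3 mutants) and, in the triple mutant, without its own library 3 (0.0954). It also missed it without experiment 3 in chp60g sard1 (0.152), the triple mutant (0.332) and sid2 (0.0719).

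CLH1 had 1426, 2480 and 4518 CPM in chp60g sard1 Pma leaves, 913, 2410 and 4912 CPM in the triple mutant, 1828, 2527 and 3165 CPM in sid2, and 170, 767 and 929 CPM in wild type. The lowest triple mutant library fell just inside the wild type range, and the other two mutants lay above it. CLH1 was 4.67-fold higher in chp60g sard1 (log2 2.22 ± 0.54, adjusted p = 0.00538), 4.25-fold in the triple mutant (log2 2.09 ± 0.54, adjusted p = 0.0106) and 4.62-fold in sid2 (log2 2.21 ± 0.54, adjusted p = 0.00583). Without wild type Pma library 1 the adjusted p became 0.0518, 0.0817 and 0.0527 in these mutants, and in the triple mutant it became 0.053 without wild type Pma library 3 and 0.0711 without its own library 3. The CLH1 calls were lost in all 3 mutants without the experiment block (0.0784 in chp60g sard1, 0.098 in the triple mutant and 0.101 in sid2) and without experiment 2 (0.0557, 0.0839 and 0.0751), and without experiment 3 in chp60g sard1 (0.0654) and the triple mutant (0.171).

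TPS04 and TAT3 showed the smallest differences of the 8 genes in chp60g sard1 and the triple mutant. TPS04 had 1406, 2066 and 2499 CPM in chp60g sard1 Pma leaves, 1451, 1778 and 2518 CPM in the triple mutant, 2663, 1982 and 2160 CPM in sid2, and 870, 886 and 1980 CPM in wild type (log2 0.80, 0.71 and 1.00 over wild type, adjusted p = 0.385, 0.477 and 0.236). TAT3 had 9779, 12358 and 9048 CPM in chp60g sard1, 8738, 10484 and 9678 CPM in the triple mutant, 4933, 5285 and 6962 CPM in sid2, and 6389, 10386 and 13071 CPM in wild type. Its log2 differences were 0.08 ± 0.77, -0.04 ± 0.77 and -0.81 ± 0.77 (adjusted p = 0.974, 0.989 and 0.538), and with an SE of this width a small difference in either direction was not detectable.

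**Figure D3:**
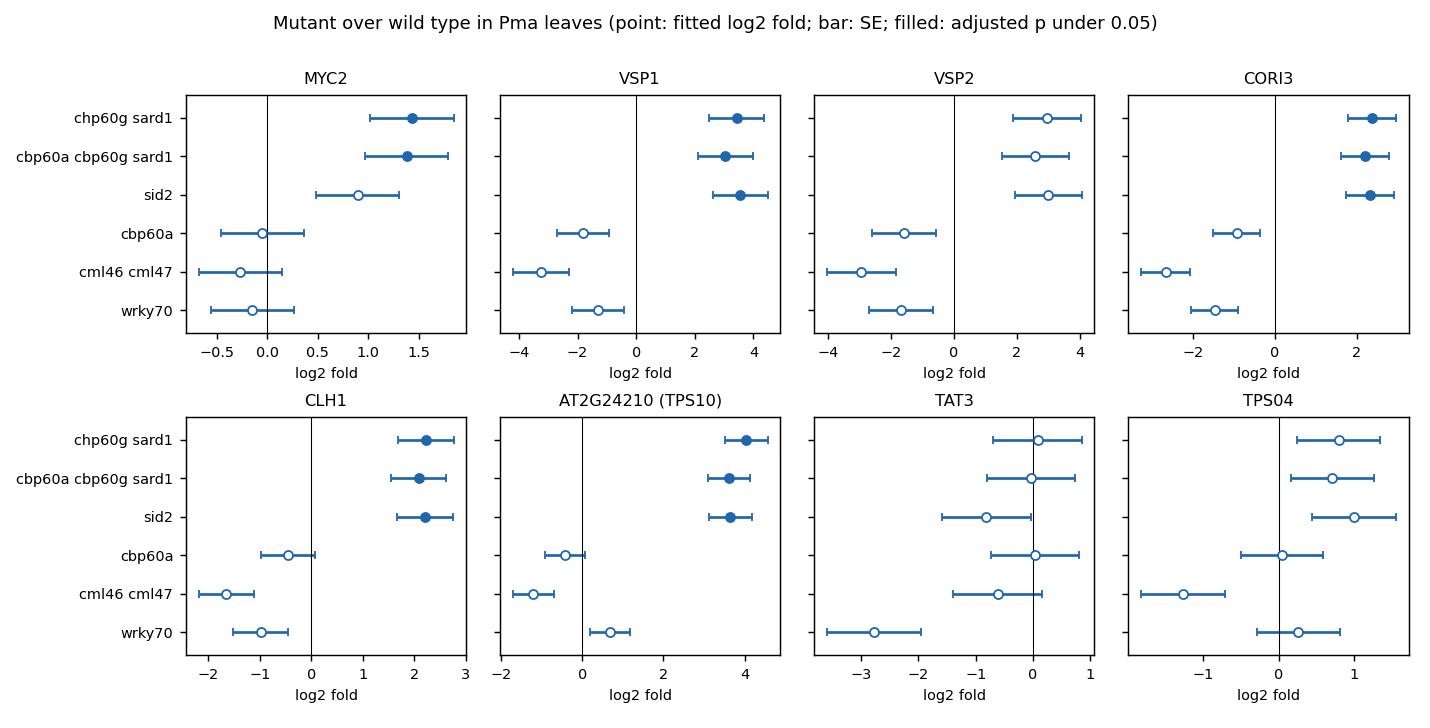
Log2 fold change ± SE of each mutant over wild type in Pma leaves for the 8 genes, with filled points for adjusted p under 0.05. AT2G24210, VSP1, CORI3 and CLH1 passed to the right of 0 in chp60g sard1, the triple mutant and sid2, TAT3 lay at 0.08, -0.04 and -0.81 there, and no point passed in cbp60a, cml46 cml47 or wrky70.

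None of the 8 genes passed the edgeR test against wild type after Pma in cbp60a (0% of all genes passed), cml46 cml47 (0.125%) or wrky70 (3.31%). At an unadjusted p under 0.05 there were 1, 6 and 2 of 8 genes. Of all 15161 tested genes, 348, 1696 and 2726 had such an unadjusted p, in the same order of mutants. In cml46 cml47 all 8 differences were negative (median log2 -1.46, against 0.03 over all tested genes). CORI3 had 168, 149 and 565 CPM in cml46 cml47 Pma leaves, against 765, 2617 and 1422 CPM in wild type. The groups did not overlap, and the difference did not pass (log2 -2.67 ± 0.60, adjusted p = 0.0588). The CORI3 difference passed without the Pma library of experiment 3 of the mutant (-3.27, 0.0185), without experiment 1 (-2.77, 0.0456), with no filter (-2.65, 0.0325), in a fit of the Pma libraries alone (-2.56, 0.027) and by DESeq2 (-2.68, 0.00423). These were 5 of 16 alternatives, over which log2 ranged from -3.52 to -1.64 and the adjusted p reached 0.838. VSP1 (log2 -3.26, adjusted p = 0.165), VSP2 (-2.94, 0.27), CLH1 (-1.65, 0.204), TPS04 (-1.27, 0.383) and AT2G24210 (-1.20, 0.35) were lower than wild type in all 3 experiments and did not pass, and MYC2 lay at -0.27 (0.883). TAT3, at 0.452, 0.635 and 0.763 times the wild type leaf of the same experiment, did not pass either.

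In wrky70 the gene that stood out was TAT3, with 591, 1083 and 2795 CPM in wrky70 Pma leaves, against 6389, 10386 and 13071 CPM in wild type. Each wrky70 library lay under every wild type library and also under every library of the other Pma genotypes. The difference was log2 -2.77 ± 0.82, a level of 0.146 of wild type, at an adjusted p of 0.0542. It passed by DESeq2 (log2 -2.76, adjusted p = 0.0214), with no filter on low counts (0.0321), in a fit of the Pma libraries alone (0.00144), without experiment 1 (0.00573) and without the wrky70 Pma library of experiment 3 (log2 -3.54, adjusted p = 0.0393). These were 5 of 16 alternatives, over which log2 ranged from -3.54 to -2.34 and the adjusted p reached 0.361. TPS04 had 710, 1080 and 2834 CPM in the same wrky70 leaves, a difference from wild type that did not pass (log2 0.26, adjusted p = 0.863). MYC2 had 108, 143 and 149 CPM (log2 -0.15, adjusted p = 0.907). CORI3 (log2 -1.47, adjusted p = 0.153), VSP2 (-1.69, 0.404), VSP1 (-1.31, 0.464) and CLH1 (-0.99, 0.33) had negative values that did not pass, and AT2G24210 a positive one (0.68, 0.507).

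In cbp60a Pma leaves TAT3 was at 1.04, 1.03 and 1.02 times the wild type leaf of the same experiment. VSP1 (log2 -1.82), VSP2 (-1.58) and CORI3 (-0.93) had negative values, all at adjusted p = 1.

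In mock leaves none of the 48 differences between a mutant and wild type passed by the edgeR test, where the share of all genes that passed was 5.24% in cml46 cml47, 0.462% in chp60g sard1, 0.185% in cbp60a, 0.0594% in wrky70, 0.0132% in sid2 and 0% in the triple mutant. At an unadjusted p under 0.05 there were 5 of 8 genes in cbp60a and 3 in cml46 cml47, and none in the other 4 mutants. Of all 15161 tested genes, 1295 in cbp60a and 2875 in cml46 cml47 had such an unadjusted p. In the other 4 mutants it was 743 to 1271 genes. All 8 values were positive in cbp60a (median log2 1.44), which includes the mock library of experiment 1 that stood apart. In experiment 2 the cbp60a mock leaf was at 0.357 (VSP1), 0.441 (VSP2), 0.324 (TAT3) and 0.357 (TPS04) times wild type. There MYC2, CORI3 and CLH1 were at 1.71, 1.41 and 1.24 times wild type. In cml46 cml47 (median log2 1.23) 7 values were positive, while CORI3 lay at 0.00 and turned to -0.04 with RLE factors. The summed level of some cell type markers was lower in cml46 cml47 mock leaves. It was 22075 to 24498 CPM for mesophyll, against 34648 to 39208 CPM in wild type mock leaves, 1039 to 1181 CPM for epidermis, against 1624 to 1709 CPM, and 491 to 608 CPM for myrosin cells, against 891 to 1316 CPM. Of the 10 tested marker genes of these 3 cell types 1 passed, a myrosin cell gene. Guard cell markers were at 32.7 to 48.9 CPM, against 51.7 to 70.9 CPM. Phloem markers (528 to 541 CPM, against 471 to 647 CPM) and trichome markers (2.18 to 4.59 CPM, against 3.92 to 7.52 CPM) overlapped wild type. The part of the markers in the differences of the 8 genes was not tested. MYC2 had 52.4, 31.3 and 80.5 CPM in cbp60a mock leaves and 48.5, 29.1 and 48.7 CPM in cml46 cml47 mock leaves, against 19.6, 18.3 and 19.7 CPM in wild type mock leaves. All 6 mutant libraries lay above the wild type range (log2 1.48, adjusted p = 0.158 in cbp60a and log2 1.16, adjusted p = 0.142 in cml46 cml47). Fitted on mock libraries only, the cml46 cml47 value passed at 0.0494, and over all 16 alternatives it reached 0.513.

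TAT3 had 908, 10.2 and 38.3 CPM in cbp60a mock leaves, against 29.4, 31.4 and 6.58 CPM in wild type mock leaves (log2 3.65, adjusted p = 0.0633). The value rests on the library of experiment 1, which also held the high PR1 level; without it the log2 difference was -0.18. TPS04 behaved alike, with 56.5, 0.783 and 7.67 CPM in cbp60a mock leaves, against 1.31, 2.19 and 2.82 CPM in wild type (log2 3.46, adjusted p = 0.0623). Both passed by DESeq2 (TAT3 0.00786, TPS04 0.0178), while over all 16 alternatives the log2 difference of TPS04 ranged from 0.46 to 4.26. In cml46 cml47 mock leaves TAT3 had 119, 75.5 and 127 CPM, above all wild type libraries (4.49-fold, adjusted p = 0.149). It passed without experiment 1 (log2 2.25, adjusted p = 0.0261), which was 1 of 16 alternatives, and the adjusted p reached 0.616 over them.

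The difference in response between mutant and wild type, tested as an interaction of genotype and treatment, passed for 1 of 48 pairs, AT2G24210 in chp60g sard1 (adjusted p = 0.0225; 6.81% of all genes passed). No fold is given for it because chp60g sard1 mock leaves had no counts of the gene and wild type mock leaves had 4. It was lost without wild type mock library 1 (adjusted p = 0.12) or 3 (0.0807) or chp60g sard1 mock library 3 (0.0746), and without the experiment block (0.11), and under 8 of 21 alternatives in all. The shares of all genes that passed were 3.88% in the triple mutant, 1.73% in sid2, 0.574% in cml46 cml47, 0.112% in wrky70 and 0% in cbp60a. At an unadjusted p under 0.05 the counts were 7 of 8 genes in cml46 cml47, 6 in cbp60a, 5 in chp60g sard1, 5 in sid2, 3 in the triple mutant and 1 in wrky70. Of all 15161 tested genes, 2514, 866, 3407, 2574, 2896 and 1886 had such an unadjusted p, in the same order of mutants. The cbp60a count includes the mock library of experiment 1, which stood apart. In experiments 1 to 3 the cbp60a log2 ratio of Pma to mock was 2.86, 9.98 and 8.42 for TAT3. It was 4.12, 9.41 and 7.94 for TPS04, and 4.60, 3.64 and 4.96 for AT2G24210. The values nearest to the threshold were VSP1 in cml46 cml47 (adjusted p = 0.0597), VSP2 in chp60g sard1 (0.077) and CLH1 in the triple mutant (0.0842). VSP2 in chp60g sard1 passed without wild type Pma library 2 (0.0189), as did VSP1 in chp60g sard1 (0.0254) and VSP2 in the triple mutant (0.0468) and sid2 (0.0391). Under other alternatives their adjusted p reached 0.384, 0.469, 0.611 and 0.457, in the same order. The smaller response of VSP1 in cml46 cml47 passed under 5 alternatives, by DESeq2 (0.0297), with no filter (0.0384), with library totals alone (0.0441), without wild type Pma library 1 (0.0381) and without cml46 cml47 Pma library 3 (0.0352). Those of CLH1 and CORI3 in cml46 cml47 passed by DESeq2 (0.0343 and 0.0368) and without cml46 cml47 Pma library 3 (0.0378 and 0.0391). Over the 21 alternatives of each gene in cml46 cml47, the adjusted p reached 0.379 for VSP1, 0.444 for CLH1 and 0.537 for CORI3. DESeq2 also called CLH1 in the triple mutant (0.0455) and AT2G24210 in sid2 (0.033).

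Among the 3 mutants with high outputs, none of the 8 genes passed the test between chp60g sard1 and sid2 in Pma leaves (6.51% of all genes passed) or between the triple mutant and chp60g sard1 (0.0066%), and none was under an unadjusted p of 0.05 by edgeR; DESeq2 also called none. TAT3 came closest in size, at 9779, 12358 and 9048 CPM in chp60g sard1, against 4933, 5285 and 6962 CPM in sid2. These groups did not overlap (1.85-fold, log2 0.89 ± 0.78, adjusted p = 0.597). The other genes differed by log2 -0.21 to 0.54 between chp60g sard1 and sid2, and all 8 by -0.42 to -0.05 between the triple mutant and chp60g sard1.

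By mean level in Pma leaves, VSP1 came in the order chp60g sard1 (4477 ± 3913 CPM, SD, n = 3), triple mutant (3899 ± 4600), sid2 (3796 ± 586), wild type (310 ± 329), wrky70 (158 ± 108), cbp60a (127 ± 135) and cml46 cml47 (46.6 ± 52.8). The only neighbours whose libraries did not overlap were sid2 and wild type. The same gap below the 3 mutants was seen for CORI3 and AT2G24210, while for CLH1 the lowest triple mutant library (913 CPM) lay under the highest wild type (929 CPM) and cbp60a (944 CPM) libraries. MYC2 had the order triple mutant (421 ± 264 CPM), chp60g sard1 (418 ± 176), sid2 (286 ± 123), wild type (155 ± 74.4), cbp60a (148 ± 52.4), wrky70 (133 ± 22.1) and cml46 cml47 (123 ± 24.4), with overlap at every step. TAT3 ended with wrky70 (1490 ± 1157 CPM), apart from its neighbour sid2 (5726 ± 1084).

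Over the 7 Pma group means of log2 CPM, Pearson's r of MYC2 with the outputs was 0.966 for AT2G24210, 0.954 for CLH1, 0.951 for VSP2, 0.946 for VSP1, 0.937 for CORI3, 0.751 for TPS04 and 0.417 for TAT3. These are descriptions over 7 points that share libraries and depth. TAT3 had the lowest r with each of the other 7 genes, between 0.122 and 0.448.

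**Figure D4:**
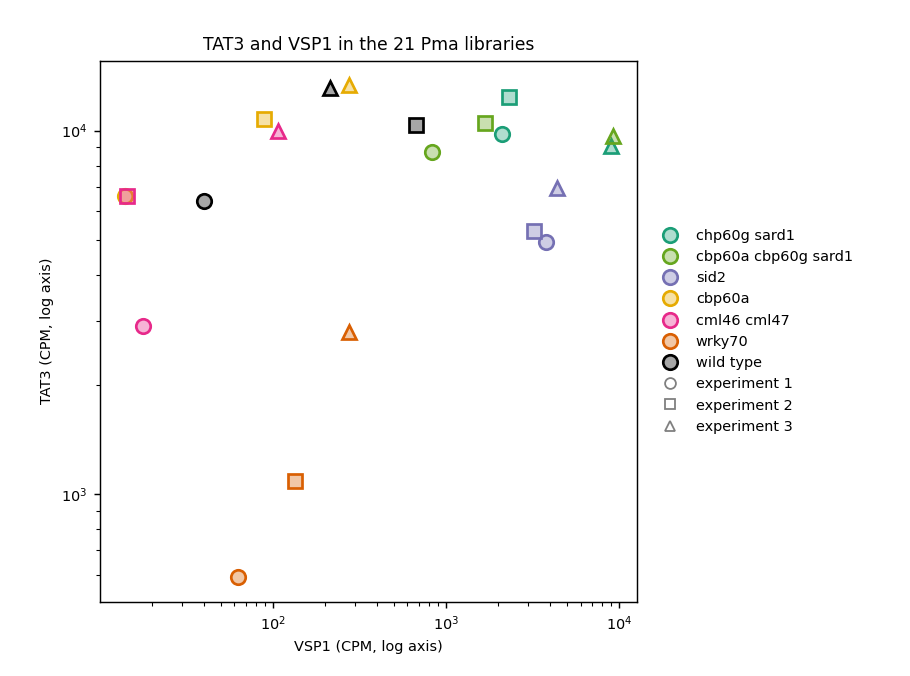
TAT3 against VSP1 in CPM (log axes) in the 21 Pma libraries, by genotype. The chp60g sard1, triple mutant and sid2 libraries lie at 832 to 9188 CPM of VSP1 with TAT3 at 4933 to 12358 CPM, and the wrky70 libraries have the lowest TAT3, at 591 to 2795 CPM.

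Ranked by Pearson's r over the 14 group means, the genes most like MYC2 were AIB (also JAM1, AT2G46510, a basic helix-loop-helix repressor; r = 0.993), OPR3 (a jasmonate synthesis enzyme; 0.993), TIFY10B (JAZ2; 0.992), SOT16 (a sulfotransferase of glucosinolate synthesis; 0.990) and OPCL1 (a CoA ligase of jasmonate synthesis; 0.989). The mean of the 7 outputs was most like LOX2 (the lipoxygenase of leaf jasmonate synthesis; r = 0.995), AIB (0.994), AT2G44578 (0.993), AT1G77885 (0.992) and AT5G53750 (0.991). These r span both treatments and were not computed within the Pma means alone.

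Genes around MYC2 in the pathway were taken from lists written from general knowledge, with earlier results of these data known. In wild type after Pma, 13 of 17 tested jasmonate synthesis genes rose and none fell (median log2 2.00), as did 10 of 12 JAZ repressors (3.14), 9 of 9 turnover genes (5.77, or 5.66 with 2 genes at their bound) and 9 of 10 other MYC-branch outputs, of which 1 fell (5.24, or 4.38 with 2 genes at their bound). Of all tested genes 32.3% passed as higher in this comparison. OPR3, which reduces the jasmonate precursor OPDA, had 330 CPM after Pma and 17.8 CPM after mock (log2 4.22 ± 0.42, adjusted p = 3.43e-10). JAZ1, a repressor of MYC2, had 705 and 10.4 CPM (log2 6.10 ± 0.48, adjusted p = 5.84e-12). The NAC factor ANAC019 had 510 and 1.67 CPM (log2 8.08 ± 0.60, adjusted p = 2.01e-12). JOX3, a jasmonate hydroxylase, had 1014 and 1.24 CPM (log2 9.51 ± 0.85, adjusted p = 4.20e-11).

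The other genes with the lowest adjusted p of each list in wild type leaves moved the same way, at adjusted p of 0.000554 or less. In the synthesis list ACX1, an acyl-CoA oxidase of peroxisomal beta-oxidation, had 661 CPM after Pma and 38.1 CPM after mock (log2 4.08 ± 0.33), and the allene oxide cyclase gene AOC3 had 119 and 0.923 CPM (6.78 ± 0.67). Among the repressors JAZ5 had 249 CPM after Pma with 5 counts over the mock libraries (7.50 ± 0.82), and JAZ10 had 194 CPM after Pma with only 2 counts over the mock libraries. In the turnover list IAR3, an amidohydrolase that cleaves jasmonoyl-isoleucine, had 837 and 16.3 CPM (5.66 ± 0.47), and JOX4 had 734 and 1.11 CPM (9.26 ± 0.83). The NAC gene ANAC055 had 489 counts after Pma and none after mock, and the methyltransferase gene BSMT1 had 815 and 3.12 CPM (7.37 ± 0.90).

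The receptor and corepressor genes, the MYC relatives and the relatives of the output genes had smaller medians than the synthesis, JAZ, turnover and other MYC-branch lists. In wild type after Pma 32.3% of all tested genes passed as higher. Of 3 receptor and corepressor genes 2 rose in wild type (median log2 0.93), TPL, a corepressor, at 69.6 CPM after Pma and 27.04 CPM after mock (1.39 ± 0.22) and its adaptor NINJA at 62.7 and 32.4 CPM (0.93 ± 0.22). Of 5 MYC relatives 3 rose and 1 fell (median 1.44), the risers being JAM1 (87.1 and 13.1 CPM, adjusted p = 3.65e-09), MYC3 (123 and 45.2 CPM, 1.44 ± 0.18) and JAM3 (46.8 and 16.7 CPM, 1.49 ± 0.20). In the ethylene-jasmonate branch 3 of 5 rose and 1 fell (median 3.84). HEL had 309 and 22.8 CPM (3.84 ± 0.60), while ERF1 (9.39 CPM after Pma) and CHI-B (12.5 CPM) had 1 and 2 counts over the mock libraries. Of 8 relatives of the output genes 6 rose and none fell (median 1.45). They included TAT1 (92.3 and 24.03 CPM, 1.80 ± 0.33), SUR1 (195 and 89.9 CPM, 1.10 ± 0.24) and CYP82G1, the enzyme that acts after TPS04 in TMTT synthesis, with 348 CPM after Pma and 2 counts over the mock libraries.

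Between chp60g sard1 and wild type after Pma, 9 of 17 synthesis genes were higher and 1 lower (median log2 1.22), 5 of 10 other MYC-branch outputs were higher (1.93), 2 of 12 JAZ repressors were higher (0.98) and none of 9 turnover genes passed (0.44), against 0.06 over all tested genes. Of all tested genes 8.88% passed as higher in chp60g sard1, 7.01% in the triple mutant and 8.89% in sid2. In cml46 cml47 0.125% passed in either direction. AOS, the allene oxide synthase, had 1834 CPM in chp60g sard1 and 334 CPM in wild type (log2 2.43 ± 0.32, adjusted p = 3.91e-06). The allene oxide cyclase genes AOC4 (160 and 20.3 CPM, log2 2.89 ± 0.44) and AOC1 (1100 and 189 CPM, 2.50 ± 0.56) were also higher. JR1, a jacalin-type lectin induced by jasmonate, had 1722 and 239 CPM (log2 2.66 ± 0.56, adjusted p = 0.00149), and the jasmonate methyltransferase gene JMT had 509 and 97.6 CPM (log2 2.26 ± 0.48, adjusted p = 0.0015). ESP, which steers glucosinolate breakdown, had 69.3 and 12.7 CPM (log2 2.51 ± 0.41, adjusted p = 0.000105). The higher JAZ genes were JAZ2 (203 and 79.8 CPM, log2 1.33 ± 0.33) and JAZ13 (76 counts over the chp60g sard1 libraries and 14 over the wild type libraries, 2.46 ± 0.81). Of 5 MYC relatives 2 were higher (median 0.65), JAM2 at 32.01 and 12.5 CPM (log2 1.38 ± 0.38) and JAM1, which competes with MYC2 for its DNA element, at 201 and 87.1 CPM (log2 1.21 ± 0.27, adjusted p = 0.00218). Of the 3 receptor and corepressor genes NINJA was higher (103 and 62.7 CPM, log2 0.71 ± 0.22, adjusted p = 0.0237) and TPL lower (42.9 and 69.6 CPM, log2 -0.71 ± 0.21, adjusted p = 0.0223). In the triple mutant 9 of 17 synthesis genes and 3 of 10 other outputs were higher, in sid2 6 of 17 (1 lower) and 4 of 10, and in cml46 cml47 none of either list (medians -0.46 and -1.37). The 8 tested relatives of the output genes had 2 higher and 2 lower members in chp60g sard1 (median log2 -0.08). The lower ones were TAT1 (AT5G53970, named TAT7 in the reference; 41.9 CPM in chp60g sard1 and 92.3 CPM in wild type, adjusted p = 0.00339) and SUR1 (112 and 195 CPM, adjusted p = 0.0218), both aminotransferase family members related to TAT3. The transaminase gene AT4G23590 was among the higher ones (27.1 and 2.45 CPM, log2 3.46 ± 0.99, adjusted p = 0.0222). Of 5 tested genes of the ethylene-jasmonate branch, 1 was lower in chp60g sard1, the chitinase gene CHI-B (3.38 and 12.5 CPM, adjusted p = 0.0439).

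Markers of some leaf cell types moved with the same contrasts, in different directions. Of all tested genes 66.3% passed in either direction in wild type after Pma. Against wild type after Pma, 13.1% passed in chp60g sard1, 10.1% in the triple mutant and 14.5% in sid2. All 4 mesophyll markers fell in wild type after Pma (median log2 -4.28), and all 4 were higher in chp60g sard1 (median 2.14) and the triple mutant (2.05) and 3 of 4 in sid2 (1.72) than in wild type after Pma. Their summed level was 4587 to 10963 CPM in chp60g sard1, 3854 to 14002 CPM in the triple mutant, 2653 to 8526 CPM in sid2 and 1752 to 2117 CPM in wild type Pma leaves. Of 4 tested epidermis markers 2 were higher in chp60g sard1 (summed 174 to 477 CPM), 1 in the triple mutant (37.2 to 475 CPM) and 1 in sid2 (55.01 to 289 CPM), against 47.7 to 81.8 CPM in wild type, so that only chp60g sard1 lay apart, and PDF1 was at 0 in chp60g sard1 and wild type. Both myrosin cell markers were higher in chp60g sard1 (1446 to 1641 CPM), 1 of 2 in the triple mutant (669 to 1617 CPM) and neither in sid2 (685 to 1514 CPM), against 583 to 773 CPM in wild type, a range that the triple mutant and sid2 overlapped. Guard cell markers had a lower summed level in chp60g sard1 (59.9 to 76.0 CPM) and the triple mutant (58.1 to 95.4 CPM) but not in sid2 (116 to 156 CPM), against 106 to 147 CPM in wild type Pma leaves, and the wild type level was 51.7 to 70.9 CPM after mock. Of 3 tested guard cell genes 1 was lower in chp60g sard1 and in the triple mutant. None of 5 phloem markers passed in the 3 mutants (463 to 575 CPM in chp60g sard1, 435 to 611 CPM in the triple mutant and 476 to 546 CPM in sid2, against 389 to 454 CPM in wild type). Of the trichome markers 2 of 3 were in the table, with at most 2.16 CPM in any Pma library. The part of these markers in the differences of VSP1, CORI3, CLH1, MYC2 and AT2G24210 was not tested.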

How the data were processed

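The values are the deposited counts per locus, 1 column per library, made by the authors from Smart-3SEQ (3′ tag) libraries. Per the labels' protocols, the first 5 bases of a read are a molecular tag followed by GGG. Per the submitters' processing notes, bcl2fastq 2.17.1.14, STAR 2.4.2a and the TAIR10 genome were used. How tags were assigned to loci, with which annotation release and strand setting, and whether the molecular tag served to remove copies, is not given in the sources used here, so intervals and floors cover counting error only. The table held 24843 loci (164 without a count), of which 24701 were found in the TAIR10.1 reference by locus name. Library totals were 919335 to 2691069 counts, which sets the precision of low levels.

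Counts were fitted with edgeR 4.0.16 (glmQLFit, glmQLFTest) in R 4.3.3, with TMM factors (0.813 to 1.29) and filterByExpr (min.count 10, min.total.count 15; 15161 genes). All 42 libraries entered 1 fit with 14 groups and a block for the experiment, which left 26 residual degrees of freedom after 16 coefficients, and the 27 comparisons are its contrasts. CPM are counts scaled to 1000000 per TMM-adjusted library (library size times TMM factor), and log2 CPM used a prior count of 2. The SE was taken as |log2 fold change| divided by the root of F. The script was tested on simulated data with known changes. The replicate number marks the experiment that the groups share, as the series' design text states. With group means subtracted, the mean correlation of libraries was 0.372, 0.351 and 0.133 within experiments 1, 2 and 3 (91 pairs each), and -0.142 across experiments and groups (546 pairs). Subtracting the means of groups of 3 by itself makes the last value negative, so it adds nothing to the values within experiments. No library was a copy of another of its own group: the chi-square per degree of freedom between replicates was 3.38 to 38.5 (42 pairs). Libraries of different groups were not compared in this way.

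The members and gene lists were chosen with earlier results of these data known. All 8 members were tested in every comparison, and not every member is named in each where none passed. From each pathway list up to 3 genes with the lowest adjusted p in wild type Pma over mock and in chp60g sard1 over wild type are named, beside the counts of the list. CML47 was followed at AT3G47480, a correction of the locus first written down. Alternatives were RLE factors, library totals alone, no filter, no block, DESeq2 1.42.0, VSP1 and VSP2 summed, fits of Pma or mock libraries alone, and fits without 1 experiment or 1 library. Figures were made in Python 3.11.15.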

Additional observations from a re-analysis of the deposited data

Results flagged for a closer look

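AT2G24210, a terpene synthase gene, was flagged because its response to Pma differed between chp60g sard1 and wild type by the test of the difference itself, the interaction of genotype and treatment in edgeR (adjusted p = 0.0225). The gene had 800, 452 and 1958 CPM in chp60g sard1 Pma leaves and no counts in chp60g sard1 mock leaves, against 24.7, 50.7 and 116 CPM in wild type Pma leaves and 1.31, 0 and 1.88 CPM in wild type mock leaves. The direction was the same under all 21 alternatives, and 8 of them took the adjusted p above 0.05, up to 0.226 without experiment 3.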

How the results depend on the processing

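Of 68 calls of a gene in a comparison, 47 held under every alternative tried, 21 were lost under at least 1, and 21 further pairs passed only under some alternative. The count of 53 for Pma over mock stayed within 1.5 times under every alternative (44 to 55 without 1 experiment). Without the replicate block the count for mutants over wild type in Pma leaves was 9 in place of 14, and it was 4 to 16 without 1 experiment. In mock leaves it was 2 in place of 0 by DESeq2 and 2 with the mock libraries alone, and 0 to 1 without 1 experiment. For the difference in response it was 2 in place of 1 with library totals alone, 0 without the replicate block, 6 by DESeq2 and 0 without each experiment in turn. The count for mutant against mutant was 0 throughout. In 3 cases the direction turned when libraries were left out. The log2 fold change of Pma over mock in cml46 cml47 ranged from -0.22 to 2.11 for CLH1 and from -0.49 to 3.05 for VSP1, both negative without experiment 3. That of TAT3 in cbp60a over wild type mock leaves ranged from -0.18 to 4.70, negative without cbp60a mock library 1. The cause was not tested. Pairs that passed under no alternative were followed by sign only. Of 28 such pairs in mutants over wild type in Pma leaves, 13 changed sign under at least 1 alternative. So did 22 of 44 pairs in mock leaves, 13 of 16 for mutant against mutant and 5 of 38 for the difference in response. The 1 such pair of Pma over mock changed sign too.

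Over all genes, the replicate block changed the calls of mutants over wild type in Pma leaves by more than 1.5 times, with 1171 without it and 1986 with it in chp60g sard1, 861 and 1533 in the triple mutant, 1127 and 2200 in sid2, and 174 and 502 in wrky70. Without experiment 3 these counts were 506, 226, 1070 and 130, and without experiment 2 they were 771, 561, 454 and 18. In cml46 cml47 the count of 19 became 34 with no filter, 36 by DESeq2 and 2 without the block. Library totals alone moved the median of all genes by up to 0.40 on the log2 scale (wild type Pma over mock), where the calls became 6335 higher of 10475, against 4900 of 10051. Among the 8 genes the SE of Pma over mock was widest for VSP1 or VSP2 in each genotype, and low mock counts limit the folds of AT2G24210.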

Other observations

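In mock leaves VSP2 varied widely between the libraries of a genotype, with 12.6, 0.730 and 169 CPM in wrky70 and 129, 11.8 and 82.5 CPM in cml46 cml47, against 39.2, 12.4 and 5.64 CPM in wild type. In the cml46 cml47 mock library of experiment 1, VSP1 (39.8 CPM), VSP2 (129 CPM) and CLH1 (132 CPM) were all above the Pma library of the same experiment (17.8, 84.1 and 66.3 CPM).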
